A study of Mus musculus with 6 samples.

Results

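The tubulin and stathmin genes examined here were 10 of the 43346 genes in a count table from cultured mouse fibroblasts: the alpha-tubulin genes Tuba1a, Tuba1b and Tuba1c, the beta-tubulin genes Tubb2a, Tubb2b, Tubb3, Tubb5 and Tubb6, and the stathmin genes Stmn1 and Stmn4. They were found by matching the Ensembl identifiers in the table to their symbols. The set was put together because reads from Stmn4 were close to absent under DMSO and present under erastin in these same libraries. For that reason the difference between treatments is given for the 10 genes as a description, with no p-value, and the count of them past the genome-wide threshold is stated only beside the share of all genes past it. Test results are given for other tubulin and microtubule genes and for cell type markers.

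The cells were primary mouse embryonic fibroblasts, which are fibroblasts grown from mouse embryos, of the C57BL/6 strain at passage 9. They received 3 µM erastin or the solvent DMSO, and RNA was taken after 24 h, with 3 libraries per treatment. Erastin inhibits cystine uptake through the antiporter that exchanges cystine for glutamate, and it is used to set off ferroptosis, in which cells die from iron-dependent oxidation of their lipids. The medium of both groups held serum and 2-mercaptoethanol, and no genetic change is named for either group. The labels say that the experiment was done in triplicate but not whether each library came from its own embryo or culture, so p-values measure the spread between these libraries, which may be in part technical.

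Microtubules are hollow polymers built from dimers of alpha- and beta-tubulin. Mammals carry several genes, called isotypes, for each subunit, and the encoded proteins differ most in their acidic C-terminal tails, which lie on the outside of the microtubule and receive modifications such as polyglutamylation. Stathmins bind tubulin dimers and favour microtubule shrinkage; Stmn1 is broadly expressed in dividing cells, while Stmn2, Stmn3 and Stmn4 are best known from neurons. Cells also adjust the stability of tubulin mRNAs to the amount of unpolymerised tubulin.

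Total counts ran from 13333911 to 20509970 reads per library. Levels are given as CPM, read counts relative to the scaled size of each library. A floor of 3 reads was worth 0.14 to 0.234 CPM, and floors and intervals cover counting error only. The 12 fibroblast markers were all measured, with a summed level of 36980 to 40236 CPM in DMSO and 26756 to 28362 CPM in erastin libraries, and 10 of the 12 fell. The 12 proliferation markers, among them Mki67 and Top2a, all fell: their summed level was 344 to 377 CPM in DMSO and 56.1 to 64.7 CPM in erastin libraries. In bulk RNA, fewer cells of a type and less RNA per cell cannot be told apart. The part of the proliferation and fibroblast markers in the tubulin values was not tested.

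The coding sequences show how alike or unlike the isotypes are, and so how far reads can tell them apart. The coding sequences of the 3 alpha genes were 97.6% to 98.4% identical over the aligned bases. The beta genes were less alike, which their ends show. The sequences below are the last 60 coding bases, stop codon included, of the longest coding transcript in GENCODE M21 on the GRCm38 build. Capitals mark bases that differ from Tubb5, the first of the beta genes shown, or that have no aligned base in it.

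Tubb5: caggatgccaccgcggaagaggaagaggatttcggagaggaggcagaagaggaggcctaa
Tubb2a: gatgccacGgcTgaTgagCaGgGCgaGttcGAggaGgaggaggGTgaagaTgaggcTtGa
Tubb2b: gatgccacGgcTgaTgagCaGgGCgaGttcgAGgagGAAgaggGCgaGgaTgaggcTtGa
Tubb3: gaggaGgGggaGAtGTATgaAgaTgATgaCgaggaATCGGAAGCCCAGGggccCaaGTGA

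Tubb2a and Tubb2b were 96.5% identical to each other over the coding sequence, while every other pair among the 5 beta genes was 80.7% to 86.5% identical. Tubb3, whose product is widely used as a neuronal marker, had the most divergent of the printed beta tails. Of its 60 bases, 32 differed from Tubb5 or had no aligned base there.

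These likenesses set how well single genes could be counted. Each transcript was divided into overlapping windows of 100 bases. A window was called shared when it occurred unchanged in a transcript of another gene or in that transcript's reverse complement. Overlap of genes at one locus therefore counts as well as copied sequence. Shared windows made up 65.8% of Tuba1a, 73.0% of Tuba1b, 53.4% of Tuba1c, 36.9% of Tubb2a, 27.7% of Tubb2b and 26.1% of Stmn1. Some of the genes that share them, such as Gm49450 for the alpha genes, have no row in the count table. None of the 100-base windows of Tubb3, Tubb5, Tubb6 and Stmn4 was shared. How reads that fit several genes were counted is not given in the sources used here, so the levels of the 3 alpha genes, of Tubb2a and Tubb2b and of Stmn1 carry an uncertainty that was not measured. The plot of shared windows shows this division.

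**Figure D1:**
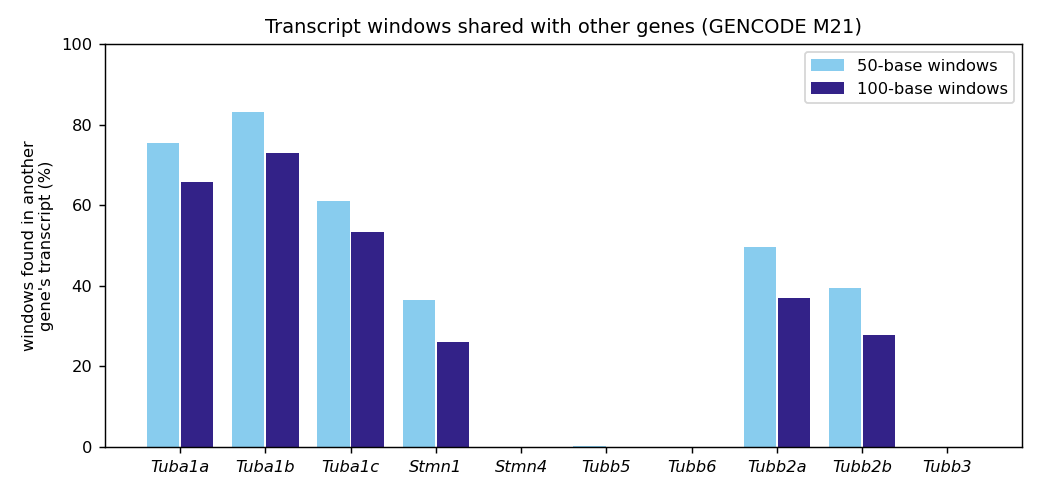
Share of 50-base (light) and 100-base (dark) windows of each gene's transcript that also occur in a transcript of another gene, on either strand, in percent, for the 10 genes. The alpha-tubulin genes stand highest, and Stmn4, Tubb3, Tubb5 and Tubb6 are at or near 0.

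Alpha-tubulin RNA was lower under erastin, mostly through Tuba1a. Tuba1a (ENSMUSG00000072235.5, chr15:98949837-98953703, minus strand), a main alpha isotype of the developing nervous system that fibroblasts also express, had 498, 407 and 451 CPM in the DMSO libraries. It had 210, 217 and 219 CPM in the erastin libraries. All 3 erastin values lay below all 3 DMSO values, and the mean went from 452 ± 45.8 to 215 ± 4.63 CPM (SD, n = 3 each), 47.6% of the DMSO level (log2 fold change -1.07, standard error, SE, 0.08).

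Tuba1b (ENSMUSG00000023004.8, chr15:98931425-98934565, minus strand), a widely expressed alpha isotype, had 142, 126 and 110 CPM in DMSO and 99.2, 107 and 101 CPM in erastin libraries. The groups did not overlap, but the gap between the lowest DMSO and the highest erastin library was small, and the erastin mean was 81.1% of DMSO (log2 -0.30, SE 0.10). After correction for trends with GC content and transcript length the difference was -0.17 on the log2 scale.

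Tuba1c (ENSMUSG00000043091.8, chr15:99029891-99038110, plus strand), the third widely expressed alpha gene of this cluster on chromosome 15, had 39.1, 32.3 and 38.6 CPM in DMSO and 42.6, 42.5 and 38.9 CPM in erastin libraries. The lowest erastin value lay just below the highest DMSO value, and the erastin mean was 113% of DMSO (log2 0.18, SE 0.11). With the same GC and length correction the value was 0.31, and without DMSO replicate 2 it was 0.09. Both Tuba1a and Tuba1b also overlap Gm49450, an annotated gene on the same strand that was not analysed here.

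Beta-tubulin RNA was lower as well, and Tubb5 accounted for most of it. Tubb5 (ENSMUSG00000001525.10, chr17:35833921-35838306, minus strand), the main beta isotype of many dividing cells, had 1441, 1341 and 1354 CPM in DMSO libraries. The erastin libraries had 583, 623 and 580 CPM. The groups lay far apart, at 1379 ± 54.1 and 595 ± 24.0 CPM, and the erastin mean was 43.2% of DMSO (log2 -1.21, SE 0.07).

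Tubb6 (ENSMUSG00000001473.6, chr18:67390717-67402749, plus strand), a beta isotype known from muscle and other non-neuronal cells, had 265, 242 and 260 CPM in DMSO and 133, 159 and 117 CPM in erastin libraries. No erastin library reached the DMSO range, and the mean under erastin was 53.3% of DMSO (log2 -0.91, SE 0.10).

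Tubb3 (ENSMUSG00000062380.3, chr8:123411424-123422015, plus strand) had 64.2, 56.0 and 80.9 CPM in DMSO and 38.6, 45.3 and 36.8 CPM in erastin libraries. The groups did not overlap, and the erastin mean was 60.02% of DMSO (log2 -0.74, SE 0.13). Tubb3 overlaps Gm20388 on the same strand, which had 0 reads in all 6 libraries.

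The near-identical Tubb2a and Tubb2b lie on chromosome 13, and both are prominent in brain. Tubb2b (ENSMUSG00000045136.5, chr13:34126748-34130466, minus strand) had 79.5, 81.4 and 97.1 CPM in DMSO and 53.4, 53.3 and 49.1 CPM in erastin libraries. The groups were separate, with an erastin mean at 60.4% of DMSO (log2 -0.73, SE 0.10). Tubb2a (ENSMUSG00000058672.6, chr13:34074274-34078007, minus strand) had 78.5, 70.2 and 94.6 CPM in DMSO and 65.3, 69.4 and 73.8 CPM in erastin libraries. Here the groups overlapped, and the erastin mean was 85.7% of DMSO (log2 -0.22, SE 0.11). After the GC and length correction, and without DMSO replicate 3, the Tubb2a difference was -0.08 and -0.10 on the log2 scale.

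**Figure D2:**
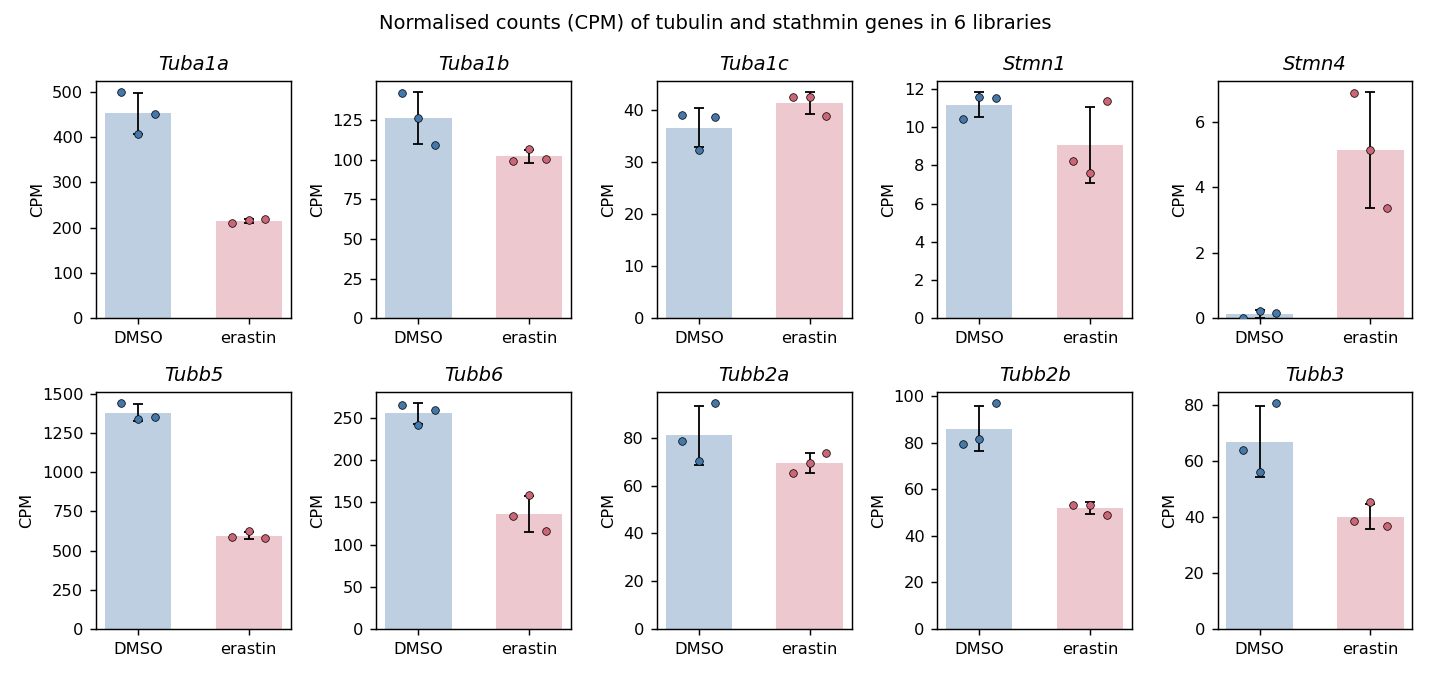
CPM of each of the 10 genes in the 3 DMSO (blue) and 3 erastin (red) libraries; bars are means, error bars SD, points single libraries, and each panel has its own axis from 0. Tuba1a, Tubb5 and Tubb6 were near or below 50% of their DMSO level, Stmn4 was near 0 in DMSO, and Tuba1c, Tubb2a and Stmn1 overlapped between groups.

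Summed over isotypes, the tubulin RNA of these 8 genes was lower in both subunit classes. The 3 alpha genes together had 680, 566 and 599 CPM in DMSO and 352, 366 and 359 CPM in erastin libraries, so that the erastin mean was 58.4% of DMSO. The 5 beta genes together had 1928, 1791 and 1886 CPM in DMSO and 874, 950 and 856 CPM in erastin libraries, 47.8% of DMSO. With the tested alpha genes Tuba4a and Tuba8 added, the alpha sum was at 66.0% of DMSO, and with Tubb4a and Tubb4b added the beta sum was at 49.3%. These sums do not depend on how reads were split among genes within a class, though any reads dropped for matching several genes would be missing from them.

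Levels of different genes were compared per kilobase of transcript. In CPM per kilobase, the order from high to low was Tubb5, Tuba1a, Tubb6, Tuba1b, Tubb2a, Tubb2b, Tubb3, Tuba1c, Stmn1 and Stmn4 in both treatments. Tubb5 stood at 520 ± 20.4 in DMSO and 225 ± 9.06 in erastin libraries, and Tuba1a at 251 ± 25.4 and 119 ± 2.57 (CPM per kilobase, SD, n = 3 each). In the middle of the order stood Tubb6, at 145 ± 6.91 in DMSO and 77.5 ± 12.1 in erastin libraries, and Tuba1b, at 72.4 ± 9.42 and 58.7 ± 2.30. Tubb2a had 50.4 ± 7.70 and 43.2 ± 2.65, and Tubb3 had 35.9 ± 6.77 and 21.5 ± 2.40 CPM per kilobase. At the low end Tuba1c had 18.5 ± 1.90 and 20.9 ± 1.07, and Stmn1 10.5 ± 0.614 and 8.55 ± 1.90 CPM per kilobase. The ranges of neighbours Tubb2a and Tubb2b overlapped across DMSO libraries, as did those of Tubb2b and Tubb3. Within each DMSO library, however, Tubb2a stood above Tubb2b and Tubb2b above Tubb3. In erastin libraries the overlapping neighbours were Tubb2b and Tubb3, and Tubb3 and Tuba1c. Tubb2b stood above Tubb3 within each erastin library, but Tuba1c stood above Tubb3 in erastin replicate 1 (21.5 against 20.7 CPM per kilobase).

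The leading isotype of each class took a smaller share under erastin. Among the 3 alpha genes, Tuba1a held 73.4% ± 1.75 of the CPM per kilobase in DMSO and 60.03% ± 0.928 in erastin libraries. The share of Tuba1b was 21.2% ± 2.11 in DMSO and 29.5% ± 0.606 under erastin, and that of Tuba1c 5.42% ± 0.381 and 10.5% ± 0.583. Among the 5 beta genes, the Tubb5 share was 65.8% ± 2.01 in DMSO and 57.6% ± 1.15 under erastin. Tubb2a went the other way, from 6.35% ± 0.823 to 11.1% ± 1.05, and Tubb2b from 4.98% ± 0.526 to 6.10% ± 0.282. None of these 6 shares overlapped between treatments, whereas the shares of Tubb6 and Tubb3 did. Shares within a class sum to 100%, so a smaller share of one gene raises the others, and the alpha shares rest on reads that may be split among near-identical genes.

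**Figure D3:**
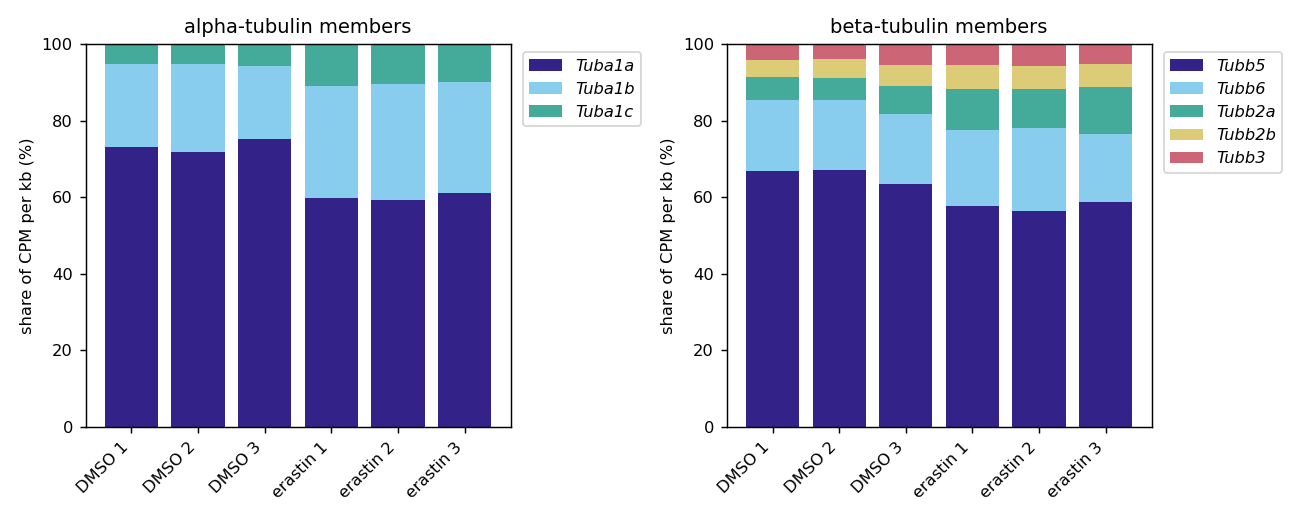
Share of each isotype in the summed CPM per kilobase of the 3 alpha genes (left) and the 5 beta genes (right), in percent, for each of the 6 libraries. The Tuba1a share was near 73.4% in DMSO and 60.03% in erastin libraries, and the Tubb5 share near 65.8% and 57.6%.

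Stmn4 showed the widest difference between treatments of the 10 genes. Its coding start is printed beside that of Stmn2, its relative that these fibroblasts express, with capitals where the aligned bases of the 2 genes are identical.

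Stmn4: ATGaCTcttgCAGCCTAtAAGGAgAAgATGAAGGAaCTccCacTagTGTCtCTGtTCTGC
Stmn2: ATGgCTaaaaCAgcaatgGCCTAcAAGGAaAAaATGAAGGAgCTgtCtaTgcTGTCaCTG

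The 2 coding sequences were 71.4% identical over the aligned bases, and no 50-base window of either transcript occurred in another gene. Stmn4 (ENSMUSG00000022044.10, chr14:66344296-66361680, plus strand), a stathmin of the nervous system, had 0, 4 and 2 reads in the DMSO libraries and 148, 86 and 65 reads in the erastin libraries. In CPM these were 0, 0.222 and 0.156 in DMSO and 6.89, 5.15 and 3.37 in erastin libraries. All DMSO libraries were at or near the floor and all erastin libraries well above it, although the erastin values spread widely. Summed over libraries, the depth-scaled ratio of 299 to 6 reads was 38.3, with an exact 95% interval of 17.4 to 105. That interval covers counting error only, not the spread between libraries. Since Stmn4 was chosen for this rise, the interval is no test of it. Even the lowest erastin library was 14.4-fold above the highest DMSO floor of 3 reads. The fitted log2 fold change was 5.19 (SE 0.76), and it was 5.93 without DMSO replicate 2, which holds 4 of the 6 DMSO reads. At 4.01 ± 1.37 CPM per kilobase under erastin, Stmn4 remained the lowest of the 10 genes per length.

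Stmn1 (ENSMUSG00000028832.7, chr4:134468320-134473843, plus strand), the founding stathmin and a gene of dividing cells, had 10.4, 11.6 and 11.5 CPM in DMSO and 8.24, 7.60 and 11.4 CPM in erastin libraries. Erastin replicate 3 lay inside the DMSO range, so the groups overlapped (log2 -0.30, SE 0.21). Without that library the value was -0.49, and without erastin replicate 2 it was -0.19.

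Neuronal markers stayed low in both treatments. The 12 neuronal markers together had 5.49 to 12.5 CPM in DMSO and 5.91 to 7.06 CPM in erastin libraries. Dcx was listed at 0 in every library, Snap25 had 1 read in all 6 together, and 7 of the 12 stayed under 1 CPM everywhere. Of the 2 neuronal markers with enough reads to test, Gap43 fell and Syn1 did not pass. Among the untested ones Elavl4 had 0.0756, 0.443 and 0.311 CPM in DMSO and 1.02, 0.479 and 1.24 CPM in erastin libraries, so its groups did not overlap, and Nefm had up to 1.012 and 2.04 CPM with overlapping groups. Of the endothelial markers Kdr and Tek rose, and the 5 markers summed to 4.99 to 8.24 CPM in DMSO and 14.9 to 18.04 CPM in erastin libraries, with Pecam1 and Cdh5 under 1 CPM in every library. The 6 skeletal muscle markers summed to 51.9 to 62.9 CPM in DMSO and 17.99 to 22.4 CPM in erastin libraries, nearly all of it Acta1, which fell. Summed glial markers had 4.77 to 7.03 and 5.12 to 6.59 CPM, macrophage markers 12.0 to 18.1 and 9.33 to 19.0 CPM, and epithelial markers 2.18 to 3.25 and 2.00 to 3.17 CPM. The steady glial sum hides opposite signs: of 2 glial markers tested, 1 fell (log2 -2.09) and the other did not pass (log2 0.72). No tested macrophage or epithelial marker passed. The part of these other cell types in the Stmn4 values was not tested.

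By the genome-wide threshold, 6 of the 10 genes counted as lower (Tuba1a, Tuba1b, Tubb2b, Tubb3, Tubb5 and Tubb6), where 21.5% of the 14000 tested genes did, and 1 counted as higher (Stmn4), where 21.6% did. In either direction, 43.1% of all genes passed. Tuba1b was no longer counted with scaling to total counts only, with the GC and length correction, or without DMSO replicate 1, DMSO replicate 2 or erastin replicate 1. The same 6 and 1 genes had groups that did not overlap, as in 52.5% of all genes tested, 25.9% downward and 26.7% upward. Since the set was chosen on this contrast, nothing is read from these counts. All 10 passed the filter on low counts, but Stmn4 did so only through its erastin libraries. The median log2 fold change was -0.51 over the 10 genes and -0.0014 over all genes tested.

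**Figure D4:**
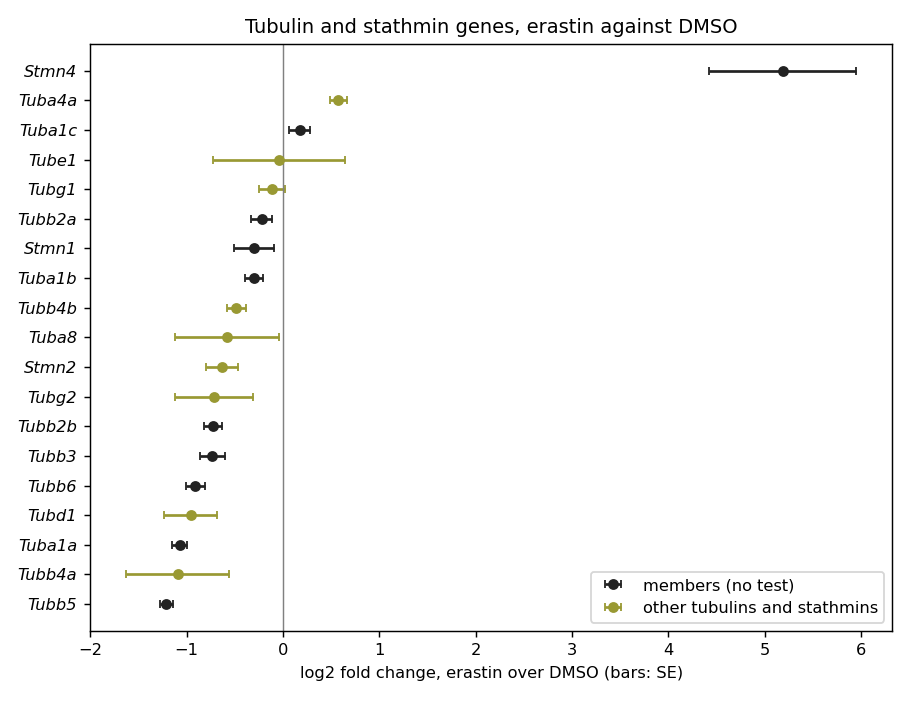
Log2 fold change, erastin over DMSO, of the 10 genes (black, no test) and of the other tested tubulin and stathmin genes (olive), with bars of 1 SE. Stmn4 stands at 5.19, Tuba4a at 0.57, and most of the rest lie at or below 0.

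Promoter sequences were at hand for 6 of the 10 genes (RefSeq, GRCm38.p6). The 250 bases before the RefSeq start are shown for Tubb5, the abundant isotype with the largest difference among the tubulins, and for Tuba1c, which was not lower. The RefSeq starts of Tuba1a, Tuba1b and Tubb3 lie inside the GENCODE intervals given above, so much of each of those windows lies after the GENCODE start, and they are not shown. Capitals mark CCAAT or its reverse complement ATTGG.

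Tubb5, chr17:35838302-35838551, minus strand: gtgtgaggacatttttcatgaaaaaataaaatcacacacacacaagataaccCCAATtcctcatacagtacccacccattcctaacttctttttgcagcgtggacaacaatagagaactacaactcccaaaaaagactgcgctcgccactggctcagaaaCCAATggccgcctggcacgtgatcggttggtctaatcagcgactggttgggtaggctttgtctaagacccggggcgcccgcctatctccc
Tuba1c, chr15:99029641-99029890, plus strand: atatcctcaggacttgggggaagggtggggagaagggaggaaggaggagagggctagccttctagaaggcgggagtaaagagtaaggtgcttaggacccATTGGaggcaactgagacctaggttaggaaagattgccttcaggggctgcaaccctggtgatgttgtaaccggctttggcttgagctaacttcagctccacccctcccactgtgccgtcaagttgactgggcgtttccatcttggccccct

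CCAAT was searched on both strands and was found in 4 of the 6 windows (Tubb5, with 2 matches, Tuba1a, Tuba1c and Tubb3), against 33.8% of all 32851 promoters of the same length. The matches in the Tuba1a and Tubb3 windows, for CCAAT and for the elements below, lay after the GENCODE start of the gene. The windows of Tuba1b, which was lower, and of Tubb2a, whose groups overlapped, held no CCAAT. A link between CCAAT and the differences was not tested. The letters of the cyclic AMP response element, TGACGTCA, were in the Tubb2a promoter alone of the 6 and in 1.55% of all. The C/EBP-ATF response element TGATGNAA was in that of Tubb3 alone and in 3.45% of all, and the antioxidant response element TGANNNNGC in those of Tubb3, Tuba1a and Tuba1c and in 35.2% of all. The AP-1 letters TGANTCA, the E2F letters TTTCCCGC and the cell-cycle homology region TTTGAA matched none of the 6 windows. They were in 6.75%, 0.895% and 16.0% of all promoters, so their absence from 6 windows is not unusual. These matches describe letters in a window and no binding.

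The remaining tubulins and stathmins went both ways. Of 12 other tubulin genes 8 could be tested: 1 rose, 2 fell and 5 did not pass (37.5% called, beside 43.1% of all genes). Tuba4a, an alpha isotype whose gene encodes no C-terminal tyrosine, rose from 57.0 ± 3.40 to 84.8 ± 4.39 CPM (log2 0.57, SE 0.09, edgeR adjusted p = 0.000102). Each erastin library (83.6, 89.7 and 81.2 CPM) was above each DMSO library (60.9, 54.5 and 55.7 CPM). Of the 100-base windows of the Tuba4a transcript, 46.7% also occurred in other genes, mostly in its neighbour Stk16.

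Tubb4b, a broadly expressed beta isotype that is also used in cilia, fell from 124 ± 8.96 to 88.9 ± 9.94 CPM (log2 -0.48, adjusted p = 0.000878). Tubd1, the delta-tubulin of centrioles, fell from 6.56 ± 0.803 to 3.37 ± 0.427 CPM (log2 -0.96, adjusted p = 0.0118), a call that was lost without DMSO replicate 2 (adjusted p = 0.0537, range over 15 alternatives 0.00494 to 0.0537). Stmn2, the stathmin next to Stmn4 in kind, had 21.2, 18.1 and 16.0 CPM in DMSO and 11.2, 13.6 and 10.8 CPM in erastin libraries. It thus fell (log2 -0.63, SE 0.17, adjusted p = 0.00754), the opposite sign to Stmn4. Stmn3 and Stmnd1 had at most 2 reads in any library and were not tested.

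Together with these other tubulins and stathmins, 8 lists held 97 tubulin and microtubule genes in all, of which 90 were tested and 42 passed (46.7%, beside the 43.1% of all genes tested), 24 upward and 18 downward. That balance moved with the scaling: upper-quartile factors gave 20 upward and 21 downward, and scaling to total counts only gave 28 and 15. Their median log2 fold change was 0.0025. The lists were drawn up with earlier results of these data known, so the counts are descriptions.

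Genes that fold tubulin moved in both directions. Of 22 folding and dimer assembly genes, 7 rose and 3 fell (45.5% called, beside 43.1% of all genes), with a median of 0.11, and with upper-quartile factors 4 rose and 4 fell. The prefoldin subunits Pfdn4 and Vbp1, which hand unfolded tubulin to the chaperonin, rose from 17.2 to 31.2 CPM and from 23.1 to 34.1 CPM (adjusted p = 0.00012 and 0.0013). Of the other prefoldin subunits, named after their values were seen, Pfdn6 rose and Pfdn5 fell (log2 0.55 and -0.40, adjusted p = 0.00937 and 0.0117). Pfdn6 lost its call without erastin replicate 2, and Pfdn5 with the GC and length correction or without erastin replicate 1. Pfdn1 and Pfdn2 did not pass. Cct8, a subunit of the chaperonin, fell from 195 ± 4.33 to 122 ± 5.01 CPM (log2 -0.68, adjusted p = 3.44e-06). Its fellow subunits Cct4 and Cct6a, named after their values were seen, rose (log2 0.25 and 0.24, adjusted p = 0.0142 and 0.0174), passing in 12 and 11 of 15 alternatives. Those calls were lost with upper-quartile factors, for Cct4 also with the GC and length correction plus replicate block and without DMSO replicate 3, and for Cct6a also without DMSO replicate 2, erastin replicate 1 or erastin replicate 2. The other 5 subunits on the list did not pass. Ttc5 and Scaper, which act in the decay of tubulin mRNA when free tubulin is high, did not pass: Ttc5 had 14.5 to 17.2 CPM in DMSO and 15.9 to 20.4 CPM in erastin libraries, and Scaper 14.0 to 16.3 and 11.0 to 16.5 CPM.

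Of 20 enzymes that modify tubulin, 9 fell and 5 rose (70.0% called, beside 43.1% of all genes), with a median of -0.42, and scaling to total counts only gave 7 and 5. Ttll5, a glutamylase, fell from 25.6 ± 0.274 to 12.3 ± 0.321 CPM (log2 -1.06, adjusted p = 1.92e-05). Other Ttll genes, named after their values were seen, went both ways. Ttll1, Ttll4, Ttll7 and Ttll11 rose (log2 0.48, 0.54, 0.67 and 0.62), passing in 12, 15, 15 and 14 of 15 alternatives. Ttll12 fell (log2 -0.28, passing in 10 of 15 alternatives), and Ttll3 did not pass. Ttl, the ligase that restores the C-terminal tyrosine of alpha-tubulin, fell from 36.8 to 23.1 CPM (log2 -0.67, adjusted p = 0.000219). Agtpbp1, which removes glutamates from the tail, fell from 35.7 to 22.4 CPM (log2 -0.68, adjusted p = 0.00187).

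Of 20 tested microtubule-associated proteins, 7 rose and 2 fell (9 called, beside 43.1% of all genes), with a median of 0.08. Camsap1 and Camsap2, which hold microtubule minus ends, rose from 50.3 to 81.2 CPM and from 80.6 to 125 CPM (log2 0.69 and 0.64, adjusted p = 9.0e-05 and 3.81e-05), and the plus-end protein Clip1 rose from 91.6 to 135 CPM (adjusted p = 0.000872). Clip2, named after its values were seen, fell from 94.5 to 71.1 CPM (log2 -0.41, adjusted p = 0.00296). In the gamma-tubulin ring complex list, 3 of 10 genes rose and none fell (30.0% called, beside 43.1% of all genes), with a median of 0.25. Akap9, a scaffold that anchors the complex at the Golgi and centrosome, rose from 55.8 to 85.9 CPM (log2 0.62, adjusted p = 0.000225). Mzt2, a small subunit of the complex, rose from 8.31 to 13.4 CPM (adjusted p = 0.011), a call lost without DMSO replicate 2 (adjusted p = 0.0514, range 0.00331 to 0.0514). Tubgcp3, a core subunit, rose from 34.9 to 43.9 CPM (adjusted p = 0.016), a call lost in 4 of 15 alternatives (range 0.00637 to 0.127), among them those without DMSO replicate 2 and without erastin replicate 2.

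Of 7 severing genes, 1 rose and 1 fell (28.6% called, beside 43.1% of all genes). Fignl1, a relative of the severing protein fidgetin, fell from 7.99 ± 1.11 to 2.80 ± 0.763 CPM (log2 -1.51, adjusted p = 0.000724). The katanin-like Katnal1 rose from 24.2 to 31.2 CPM (log2 0.37, adjusted p = 0.0287), but passed in only 8 of 15 alternatives (range 0.0118 to 0.126), and not without DMSO replicate 1, DMSO replicate 2, erastin replicate 1 or erastin replicate 3.

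**Figure D5:**
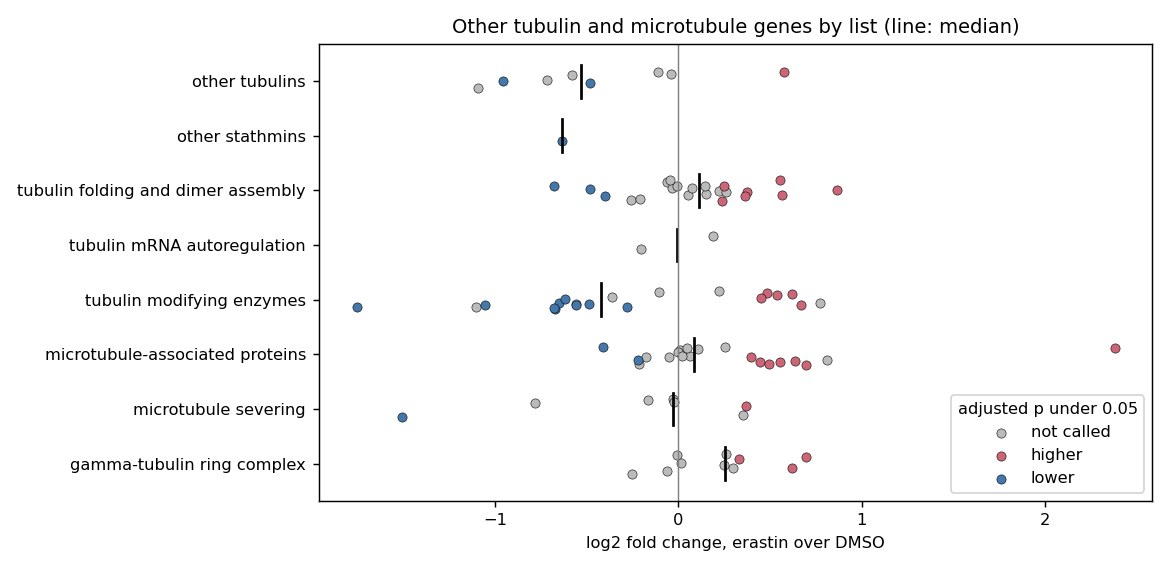
Log2 fold change, erastin over DMSO, of the tested genes of 8 tubulin and microtubule lists; each point is a gene, coloured by its call at an adjusted p under 0.05 (higher red, lower blue, not called grey), and the black line is the list's median. The modifying enzymes have a median of -0.42 and the gamma-tubulin ring complex genes one of 0.25.

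The genes whose profile lay nearest to that of Stmn4 over the 6 libraries were Cftr, Fgf21, Crct1, Hmox1 and Dusp10. Nearness was the root mean square difference of centred log2 CPM (0.46, 0.56, 0.57, 0.58 and 0.62). A prior count of 2 was added before taking logs, which shrinks differences of low-count genes such as Stmn4. The fitted log2 fold changes of the 5 genes were 4.69, 4.88, 4.93, 3.86 and 3.81, beside 5.19 for Stmn4. Cftr, an ion channel gene, had 0, 4 and 1 reads in DMSO and 68, 43 and 64 reads in erastin libraries, a level pattern as low as that of Stmn4. Hmox1, which encodes the haem-degrading enzyme heme oxygenase 1, had a far higher level, with means of 186 CPM in DMSO and 2703 CPM under erastin. The 5 genes were picked for this likeness, so no test is attached to it.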

How the data were processed

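RNA was measured in 6 libraries. Per the labels' protocols, total RNA was depleted of ribosomal RNA, fragmented by heat, made into Ion Total RNA-seq libraries and sequenced on an Ion Proton. The deposited table holds whole-number read counts per gene, which the authors did not normalize. Per the submitters' processing notes, HTSeq 0.9.1 and SAMtools were used with the mm10 build. The aligner, the annotation release, the strand setting and the treatment of reads matching several genes are not given in the sources used here. There were 0 unused columns of per-sample values.

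Identifiers were matched without their version to GENCODE M21 (GRCm38). Counts were fitted with edgeR 4.0.16 in R 4.3.3: filterByExpr (at least 10 counts, scaled by library size, in 3 libraries and 15 in all; 14000 genes), TMM scaling and the quasi-likelihood test of a model of all 6 libraries that holds only the treatment. P-values were adjusted by the Benjamini-Hochberg method across the tested genes and read at a threshold of 0.05. CPM uses the TMM-scaled library sizes. The scripts were tested on simulated data.

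The members and the lists were chosen with earlier results of these data known. Named are all members, up to 3 genes per list with the largest absolute log2 fold change among those past the threshold whose counts average 50 or more, and the 5 genes nearest to Stmn4. Alternatives were other scalings and filters, DESeq2 1.42.0, a replicate block, a GC and length offset (mgcv 1.9.3), a threshold of 0.01 and leaving out each library. No pair of libraries agreed within sampling noise: chi-square per degree of freedom was 11.0 or more. Coding ends of the alpha-tubulin genes are not reported here.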

Additional observations from a re-analysis of the deposited data

How the results depend on the processing

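The 10 tubulin and stathmin genes kept the sign of their log2 fold change in each of 15 alternatives. The number called higher was 1, and 2 with the GC and length offset, alone or with the replicate block, since Tuba1c then passed. The number called lower went from 6 to 5 there, with scaling to total counts and at the stricter threshold, each time through Tuba1b. Without DMSO replicate 2 it stayed at 6, with Tubb2a in place of Tuba1b. At an adjusted p under 0.01, 26 of the microtubule list genes passed in place of 42, with 15 higher in place of 24 and 11 lower in place of 18. The cause of these changes was not tested, apart from the threshold, which passes fewer genes by construction. Leaving out each library in turn gave 4802 to 5809 genes called of all genes (6028 with all libraries), 32 to 42 list genes, 18 to 24 higher and 13 to 18 lower, 5 to 6 members lower and 1 member higher. No pairing by replicate number was seen: the deviations of equally numbered libraries correlated at 0.04, 0.0038 and -0.0055. Such values cannot show that equally numbered libraries were handled apart, since counting noise also draws correlations to 0. With the replicate block, 5882 genes were called, 5751 of them also called without it in the same direction. Over all genes, the median log2 fold change stood at -0.055 with upper-quartile factors and at 0.065 with scaling to total counts, and these scalings gave Tubb5 values of -1.27 and -1.15. Stmn4 is limited by depth, with 6 reads in the DMSO libraries together.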

Other observations

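Few reads were counted for Gm14150, Gm17383 and Gm11223, which share windows with tubulin or stathmin genes. How reads matching several genes were counted is not known, so these values do not give the expression of such copies. AC157548.1, Gm3226 and Tubb2a-ps2, which also share windows with tubulin genes, have no row in the count table. Gm14150, whose sequence shares windows with Tuba1b, had 4.21 to 5.06 CPM in DMSO and 2.44 to 3.35 CPM in erastin libraries (log2 -0.61, SE 0.32, edgeR adjusted p = 0.137). Gm17383, which shares windows with Tuba1a, had 0.311 to 0.776 CPM in DMSO and 0.259 to 1.02 CPM in erastin libraries. Gm11223, which shares windows with Stmn1, had 0.333 to 0.545 CPM in DMSO and 0.299 to 1.14 CPM in erastin libraries. The erastin replicate 3 library had the highest value of both Stmn1 and Gm11223 within its group.

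A pair of low-count list genes is given here although chosen after their values were seen. On its DMSO libraries alone (13, 7 and 2 reads) Map7 would not have passed the filter on low counts. The same holds for Vash1 on its erastin libraries (7, 9 and 13 reads). Their values, p-values included, are therefore descriptions and no test of a difference. Map7, a microtubule-associated protein of epithelia, rose from 0.509 ± 0.426 to 2.65 ± 0.382 CPM (log2 2.38, SE 0.61, edgeR adjusted p = 0.00512, higher in 3 of 3 erastin libraries), and passed in 15 of 15 alternatives. Vash1, a carboxypeptidase that removes the C-terminal tyrosine of alpha-tubulin, fell from 1.74 ± 0.208 to 0.513 ± 0.176 CPM (log2 -1.76, SE 0.57, edgeR adjusted p = 0.0221). Its call held in 9 of 15 alternatives (adjusted p 0.014 to 0.112) and was lost, among others, without DMSO replicate 1, DMSO replicate 2, erastin replicate 1 or erastin replicate 2. Its paralogue Vash2 rose (log2 0.45, edgeR adjusted p = 0.0155, range 0.00635 to 0.0778), a call lost without DMSO replicate 2 or erastin replicate 2.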
